A study of Mus musculus with 55 samples.

Results

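Hsd3b5, Clec2h and Serpina4-ps1 had the deepest relative fall among the 3900 genes listed for mouse livers labelled Setd8-LKO + TCPOBOP against untreated WT livers. The ranking used the log2 ratio of group mean normalized counts, with 1 added to each mean. The rank of Clec2h depends on that added value. These 3 genes were chosen from that comparison, so their values in it are a description and carry no test. All 3 were also listed, among 719 genes, for WT + TCPOBOP against untreated WT. RNA-seq was available from 5 untreated WT, 5 WT + TCPOBOP and 4 Setd8-LKO + TCPOBOP livers of male mice aged 45 to 50 days. Setd8-LKO mice carry Setd8 lox/lox alleles with exon 7 floxed and Alb-Cre, whose albumin promoter is active in hepatocytes. Treated mice received 3 mg/kg TCPOBOP, a CAR agonist that drives hepatocytes to divide, and were examined after 24 h. No untreated Setd8-LKO RNA was analysed here, so in the first comparison genotype and treatment changed together and their parts cannot be told apart. H3K27ac, CTCF and Smc3 ChIP-seq, ATAC-seq, and Lamin A/C and H4K20me3 CUT&Tag of untreated WT and Setd8-LKO + TCPOBOP livers were used at the 3 loci.

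Pituitary growth hormone (GH) is released in pulses in male mice and more evenly in females. In hepatocytes it acts through its receptor Ghr and the kinase Jak2 on the transcription factor Stat5b, and the pulsed pattern keeps male-biased genes on and female-biased genes low. Hsd3b5 encodes a male-biased hepatic 3-ketosteroid reductase of the Hsd3b family. Clec2h encodes a C-type lectin-like membrane protein. Serpina4-ps1 is an unprocessed pseudogene in the serpin cluster that holds the alpha-1-antitrypsin genes.

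The regulatory sequence at each gene is shown because H3K27ac and accessibility peaks within 1000 bp of the 3 RefSeq starts differed between the deposited lists. Hsd3b5 (ENSMUSG00000038092) lies on the minus strand of chr3:98618634-98630252 in the mm10 (GRCm38) files. RefSeq places its start 15282 bp further upstream, at position 98645534. Clec2h (ENSMUSG00000030364) lies on the plus strand of chr6:128662385-128677374, with the same start in both annotations. Serpina4-ps1 (ENSMUSG00000092075) lies on the plus strand of chr12:104080649-104086724, and its RefSeq start is 2690 bp upstream, at position 104077959. For Hsd3b5 and Clec2h the 250 bases before the RefSeq start are given, at chr3:98645535-98645784 and chr6:128662135-128662384 (RefSeq, GRCm38.p6). For Serpina4-ps1 the untreated WT accessible region upstream of its start is given, at chr12:104076720-104077016, on the plus strand. This region overlapped an accessibility peak of the Setd8-LKO + TCPOBOP list as well. Capitals mark matches to TTCNNNGAA (the Stat5 palindrome), ATTGAT (HNF6) or TGTTTA (FOXA), searched on both strands.
Hsd3b5: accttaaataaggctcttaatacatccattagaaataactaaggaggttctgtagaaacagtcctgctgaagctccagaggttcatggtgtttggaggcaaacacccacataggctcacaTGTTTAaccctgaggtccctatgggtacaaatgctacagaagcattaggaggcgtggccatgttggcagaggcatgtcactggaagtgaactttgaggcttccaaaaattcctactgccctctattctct
Clec2h: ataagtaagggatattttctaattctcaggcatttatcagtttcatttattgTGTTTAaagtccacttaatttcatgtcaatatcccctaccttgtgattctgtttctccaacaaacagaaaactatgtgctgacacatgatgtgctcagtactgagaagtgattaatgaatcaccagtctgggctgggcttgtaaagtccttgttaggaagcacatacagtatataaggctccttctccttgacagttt
Serpina4-ps1: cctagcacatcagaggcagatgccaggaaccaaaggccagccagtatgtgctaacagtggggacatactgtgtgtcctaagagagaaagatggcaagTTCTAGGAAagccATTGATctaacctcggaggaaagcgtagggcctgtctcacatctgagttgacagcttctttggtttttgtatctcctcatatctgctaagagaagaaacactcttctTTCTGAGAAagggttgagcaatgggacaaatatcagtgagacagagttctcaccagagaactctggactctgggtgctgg

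The Serpina4-ps1 region held 2 matches to TTCNNNGAA, at bases 98 to 106 and 218 to 226, and 1 match to ATTGAT at bases 111 to 116. A match to TTCNNNGAA was present in 9.85% of all 27298 untreated WT accessible regions (the 300 bases at their centres), and one to ATTGAT in 11.2%. The Hsd3b5 and Clec2h windows each held 1 TGTTTA and no match to the other motifs named. The FOXA letters were present in 12.0% of 32817 RefSeq promoter windows of the same length. Of 6 motif forms searched, 3 were added after the sequences had been seen: TGTTTAC, TTGCNNAA (C/EBP) and CAAAGTCCA (HNF4A). None of these was in the Hsd3b5 or Clec2h window, and TTGCNNAA occurred once in the Serpina4-ps1 region. These are letter matches only and say nothing about binding.

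Hsd3b5 RNA was abundant in untreated WT liver, lower after TCPOBOP and nearly absent from libraries labelled Setd8-LKO. Its normalized counts in untreated WT were 2579, 2739 and 2914 for run A, with 6989 and 8072 for run B. The runs are named in the column headers, which do not say what a run is. In WT + TCPOBOP they were 126, 149 and 245 for run A, with 502 and 939 for run B. In libraries labelled Setd8-LKO they were 2 for run A, with 2, 5 and 5 for run B. The 3 groups did not overlap, and the 2 WT groups were higher in run B than in run A. The mean fell from 4659 ± 2652 (SD, n = 5) to 392 ± 340 (n = 5) with TCPOBOP and was 3.5 ± 1.73 (n = 4) in Setd8-LKO + TCPOBOP. From 18 reads against 20854, the scaled level was 1280-fold below untreated WT, with an exact 95% interval of 813 to 2170 that covers counting error only. Against WT + TCPOBOP it was 107-fold lower (67.2 to 180).

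Serpina4-ps1 showed a comparable loss in libraries labelled Setd8-LKO and a more variable one in treated WT livers. Its untreated WT counts were 1926, 2605 and 5697 for run A, with 3941 and 4896 for run B. In WT + TCPOBOP they were 193, 244 and 483 for run A but 1947 and 3468 for run B. Libraries labelled Setd8-LKO gave 0 for run A, with 1, 2 and 4 for run B. The treated WT libraries of run B reached into the untreated range, whereas every library labelled Setd8-LKO lay far below both WT groups. The 9 reads against 17431 corresponded to a level 2150-fold lower than in untreated WT (1130 to 4700).

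Clec2h was the least abundant member. Untreated WT libraries gave 52, 345 and 551 for run A, with 462 and 688 for run B. WT + TCPOBOP libraries gave 7, 48 and 68 for run A, with 64 and 113 for run B. In libraries labelled Setd8-LKO, 3 of 4 had no read, and the remaining one had a normalized count of 2. Untreated WT replicate 4, at 52, lay within the range of the treated WT libraries. The 2 reads against 1916 gave a ratio of 0.000941 (exact 95% interval 0.000114 to 0.00341) to untreated WT. Per kilobase of annotated exon, mean untreated WT levels were 3007 for Hsd3b5, 2963 for Serpina4-ps1 and 155 for Clec2h.

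**Figure D1:**
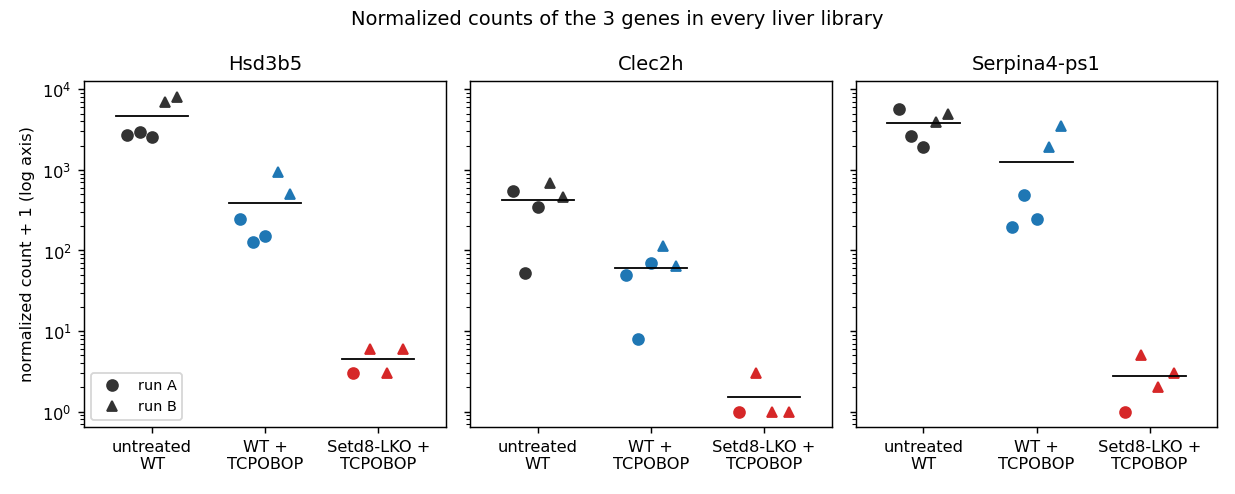
Normalized count + 1 (log axis) of each gene in each library, with circles for run A, triangles for run B and a bar at each group mean. All 4 Setd8-LKO + TCPOBOP libraries sit at or below a count of 5 for every gene, while Serpina4-ps1 in WT + TCPOBOP splits by run.

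The second comparison, which the choice of members did not use directly, asks how far TCPOBOP alone moved these genes in WT liver. The members were chosen for their fall from the same untreated WT libraries, so their p-values here are not independent of that choice. It shares the 5 untreated WT libraries with the first, and its table lists only genes the authors selected, all changed by at least 1 log2 unit here, of which 78.8% of those tested passed here in either direction and 20.6% passed as lower and 58.2% as higher. Scaled by TMM over the listed genes instead, 207 were called lower and 71 higher, in place of 140 and 395. By edgeR's quasi-likelihood test 1 of the 3 members passed. Hsd3b5 fell by 3.57 on the log2 scale (SE 0.62, adjusted p = 0.00636) and was lower in 5 of 5 treated libraries than in any untreated one (exact two-sided permutation p = 0.00794, the smallest that 5 against 5 libraries allow). Clec2h had a log2 fold change of -2.81 (SE 0.70, edgeR adjusted p = 0.0653, exact permutation p = 0.0317), and passed with run as a term of the model (edgeR adjusted p = 0.0403) or without untreated WT replicate 4 (edgeR adjusted p = 0.0098). Serpina4-ps1 had a log2 fold change of -1.59 (SE 0.73, edgeR adjusted p = 1, exact permutation p = 0.0397). Within run A its log2 fold change was -3.47 (SE 0.54) and within run B -0.71 (SE 0.28). The difference between runs was 2.77 (SE 0.74, edgeR unadjusted p = 0.00434, adjusted p = 1). The run values were -3.98 and -3.39 for Hsd3b5 and -2.96 and -2.71 for Clec2h.

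The label Setd8-LKO was checked with the targeted gene. Kmt5a, the gene of Setd8, had a normalized count of 644 ± 89.7 (SD, n = 5) in untreated WT and 1364 ± 68.3 (n = 4) in libraries labelled Setd8-LKO. The count covers the whole gene and does not resolve the floxed exon. The CAR target Cyp2b10 rose in both treated groups, from 51.4 ± 35.8 in untreated WT to 57540 ± 3037 in WT + TCPOBOP and 47140 ± 16250 in Setd8-LKO + TCPOBOP.

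Male-biased GH-dependent genes were lower along with the members. Of 32 such genes 31 were listed and 30 were called lower in libraries labelled Setd8-LKO (edgeR, adjusted p below 0.05 and at least 1 log2 unit), with a median log2 fold change of -3.54. The table holds genes that the authors had already selected, 92.7% of those tested were called, 37.5% as lower and 55.2% as higher, and the median over all of them was 1.16. With DESeq2 size factors over the listed genes, that median was 0.30, and 1497 genes were called lower and 846 higher in place of 1399 and 2056. The steepest were Moxd1 (-7.54, SE 1.72), the fatty acid elongase Elovl3 (-5.41, SE 1.18), the oxysterol hydroxylase Cyp7b1 (-4.94, SE 0.49), the coenzyme A diphosphatase Nudt7 (-4.89, SE 0.25), Keg1 (-4.63, SE 0.37) and the major urinary protein gene Mup7 (-4.61, SE 0.87). Moxd1 counts ranged from 2 to 491 in untreated WT and overlapped those of Setd8-LKO + TCPOBOP, and it was not called by limma-voom (adjusted p = 0.0576) and fell below the count filter without untreated WT replicate 1, 2, 4 or 5. Mup genes are close copies whose reads may be split among them. This list, like those below, was chosen with earlier results of these data known, so its counts are a description. In WT + TCPOBOP 7 of the 32 were listed and 5 were called lower, against 20.6% of all genes tested. Among the 5 were Nudt7 (-2.28, SE 0.28) and Cyp7b1 (-2.06, SE 0.27).

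Female-biased genes that GH represses in males mostly moved the other way. Of 23, 18 were listed, 16 were tested, 13 were called higher and 2 lower in libraries labelled Setd8-LKO, with a median of 2.05. Of all genes tested there, 55.2% were called higher. With DESeq2 size factors 8 were called higher and 2 lower. The sulfotransferases Sult2a1 (9.30, SE 1.24), Sult1e1 (5.88, SE 0.76) and Sult2a2 (5.11, SE 0.78), the cytochrome P450 Cyp2b9 (8.46, SE 0.61) and Prom1 (5.04, SE 0.50) rose most. Several rest on few counts in untreated WT: 0 to 3 for Sult2a1, 0 to 4 for Sult1e1, 1 to 3 for Cyp2b9 and 5 to 13 for Sult2a2. In libraries labelled Setd8-LKO Sult2a1 ranged from 17 to 782, so the sizes of these rises are uncertain. Cyp2c69 (-2.20, SE 0.29) and Cyp2c40 (-2.01, SE 0.31) fell. In WT + TCPOBOP 12 were listed, 10 tested, 9 called higher and 1 lower, against 58.2% of all genes tested called higher. With TMM or DESeq2 size factors 3 of these genes were called higher and 1 lower. The Cyp2b and Cyp3a families of this list also hold known CAR targets.

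Components of the GH pathway were listed less completely. Of 20, 6 were listed, and 5 were called lower, against 37.5% of all genes tested. The receptor Ghr fell by 2.36 on the log2 scale (SE 0.19), from 9282 ± 1807 (SD, n = 5) to 1804 ± 182 (n = 4) normalized counts. The GH targets Igfals (-2.77, SE 0.28) and Igf1 (-1.49, SE 0.17), the feedback inhibitor Socs2 (-1.29, SE 0.33) and the insulin receptor Insr (-1.01, SE 0.18) also fell. Igfbp1 had a log2 fold change of 1.68 (SE 0.60) and was not called. Stat5b, Cish and Hnf4a were not listed. Of 26 regulators of sex bias and hepatocyte identity, 8 were listed, and 92.7% of all genes tested were called in either direction. Onecut1, which encodes HNF6 (-2.61, SE 0.37), Cebpa (-2.24, SE 0.28), Ppara (-1.53, SE 0.24) and the male-biased repressor Bcl6 (-1.46, SE 0.29) fell, and Tox (1.61, SE 0.21), Trim24 (1.39, SE 0.15) and the female-biased repressor Cux2 (1.11, SE 0.31) rose, though with DESeq2 size factors none of the listed regulators was called higher. In WT + TCPOBOP Ghr, Igf1 and Socs2 were not listed, Trim24 rose by 1.10 (SE 0.19) but had log2 fold changes of -0.16 and -0.08 with TMM and DESeq2 size factors, and Cux2 had a log2 fold change of 1.98 (SE 0.58) and was not called.

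**Figure D2:**
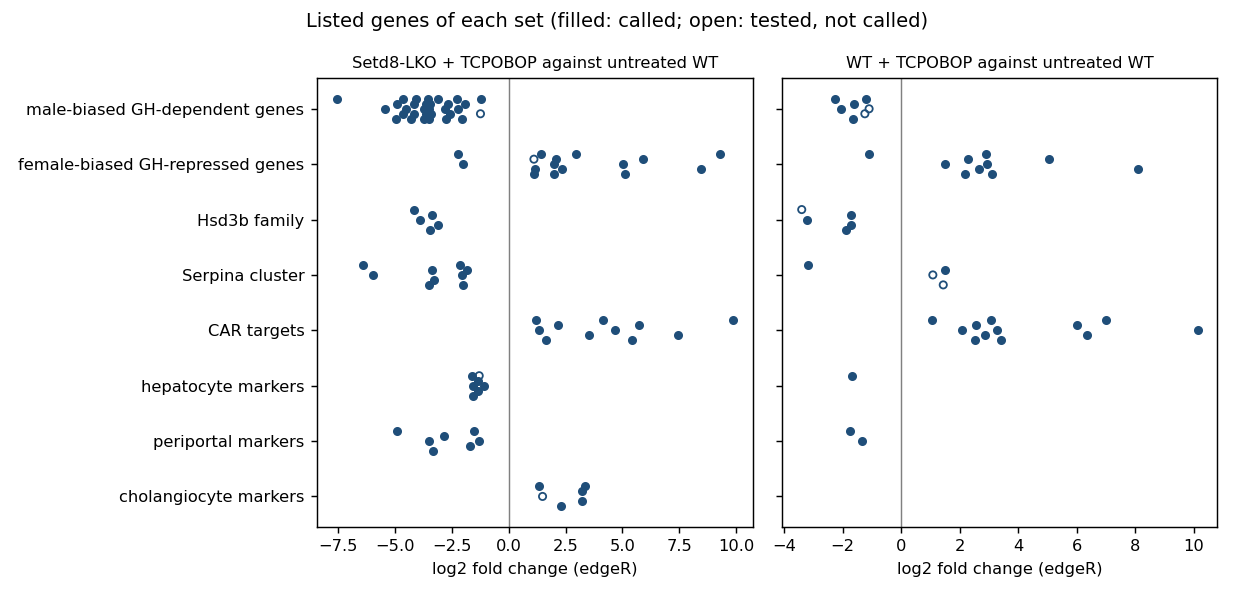
Each point is the log2 fold change of 1 tested gene of the named list, in Setd8-LKO + TCPOBOP (left) and WT + TCPOBOP (right) against the same untreated WT libraries, with separate horizontal scales. Male-biased genes lie below 0 in both panels and most female-biased genes above it.

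Of 6 other Hsd3b genes 5 were listed and called lower in libraries labelled Setd8-LKO, against 37.5% of all genes tested. Their log2 fold changes ran from -4.16 for Hsd3b4 to -3.12 for Hsd3b3. In WT + TCPOBOP 4 of 5 were called lower, against 20.6% of all genes tested. Hsd3b5 transcripts share 21.2% of their 50-base words with other genes (18.2% with Hsd3b4), so part of these reads may be split between copies. Zfp697 overlaps Hsd3b5 on the opposite strand without sharing bases of GENCODE exons, and its mean normalized count went from 11870 to 810. Clec2h shares 2.15% of its 50-base words with other genes and Serpina4-ps1 none. Of 11 Clec2 and Klrb1 relatives only Clec2d was listed (-2.08, SE 0.28). Of 22 serpin genes 9 were listed and called lower in libraries labelled Setd8-LKO, against 37.5% of all genes tested. The steepest were Serpina9 (-6.39, SE 0.85) and Serpina12 (-5.97, SE 1.09), which lie 64.2 and 33.5 kb from Serpina4-ps1. In WT + TCPOBOP 4 serpin genes were listed, with a median of 1.26. Serpina9 was called lower (-3.18, SE 0.76) and Serpina6 higher (1.5, SE 0.24), the latter in neither other scaling. Of all genes tested there, 20.6% were called lower and 58.2% higher. The windows of 250 kb around the members hold 21, 31 and 26 annotated genes, most of them not listed. Within them, 8 of 9 listed genes around Hsd3b5, 4 of 5 around Clec2h and 8 of 9 around Serpina4-ps1 were called lower, against 37.5% of all genes tested. Most of those around Hsd3b5 and Serpina4-ps1 are the Hsd3b and serpin genes counted above, so these are not separate results.

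Genes were ranked by root mean square distance of log2(normalized count + 1) from each member over the 9 libraries of the first comparison. Hsd3b5 and Serpina4-ps1 were nearest to each other, at 0.74 log2 units. Next to both came Clec2h and the sulfotransferase gene Sult2a8, whose mean went from 12470 to 110.5 normalized counts. Clec2h was nearest to the lincRNA Gm3734 (1.39 log2 units), and of the other members only Hsd3b5 was among its 5 nearest genes. These distances use the comparison that chose the members and are a description.

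Markers of several cell types were also called, in both directions. Of all genes tested, 37.5% were called lower and 55.2% higher. Of 14 hepatocyte markers 7 were listed and 6 called lower, and their summed count ranged from 879043 to 1647748 in untreated WT and from 424154 to 572335 in libraries labelled Setd8-LKO. Alb had a log2 fold change of -1.34 (SE 0.30). Of 8 periportal markers 7 were listed and called lower. Of 9 pericentral markers 5 were listed, 2 called lower and 3 higher. All 6 cholangiocyte markers were listed and 5 called higher, with sums of 424 to 697 and 1634 to 7506. Of 9 macrophage and monocyte markers 3 were listed and called higher (sums 54 to 117 and 297 to 548), as were 3 of 7 stellate cell and fibroblast markers (554 to 1359 and 2107 to 6735). Of 6 neutrophil markers 2 were listed and 0 called, and of 8 lymphocyte markers 1 was listed and called lower. Of 7 endothelial markers 0 were listed. With DESeq2 size factors 4 cholangiocyte, 1 macrophage and monocyte and 2 stellate cell and fibroblast markers were called higher. The part of these shifts in the loss of the members was not tested. In whole liver, fewer cells of a type and less RNA per cell cannot be told apart.

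At the chromatin level each member had an H3K27ac and an accessibility peak within 1000 bp of its RefSeq start in untreated WT, and none in the Setd8-LKO + TCPOBOP lists. There is 1 list per condition and assay, so no test was possible, and a peak missing from a list may be signal below the calling threshold. At Hsd3b5 the lost H3K27ac peak (chr3:98643734-98646327, 21.0-fold enrichment) and accessible region (chr3:98645515-98645732, 6.73-fold) cover the upstream RefSeq start and, in whole or in part, the sequence printed above. At the downstream GENCODE start, peaks were present in both lists, with H3K27ac enrichments of 14.3 and 15.3 in untreated WT and 7.65 and 5.50 in Setd8-LKO + TCPOBOP. Peaks carry no strand, and Zfp697 overlaps Hsd3b5 on the opposite strand, so peaks at this locus cannot be assigned to Hsd3b5 alone. At Clec2h the H3K27ac peak (chr6:128662467-128662720, 6.33-fold) and the accessible region (chr6:128662240-128662567, 8.56-fold) at the start had no counterpart. This H3K27ac peak lay close to the calling threshold (-log10 p 19.4) and leaves the untreated WT list at a minimum of 20. At Serpina4-ps1 the H3K27ac peaks at chr12:104077103-104078896 (9.78-fold) and chr12:104075879-104076660 (11.1-fold) had none, while the accessible region printed above overlapped a Setd8-LKO + TCPOBOP peak at chr12:104076706-104076867 that lies just beyond 1000 bp from the start. No list had an H3K27ac or accessibility peak within 1000 bp of the GENCODE start of Serpina4-ps1. At GENCODE starts, untreated WT peaks without a counterpart were thus found at Clec2h only. Over the 3 loci and 10 kb around them, 8 of 11 untreated WT H3K27ac peaks and 4 of 7 accessible regions were not in the Setd8-LKO + TCPOBOP lists, against 22.3% and 26.98% of all untreated WT peaks of these assays, and all 3 peaks of each assay in those lists overlapped a WT one.

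**Figure D3:**
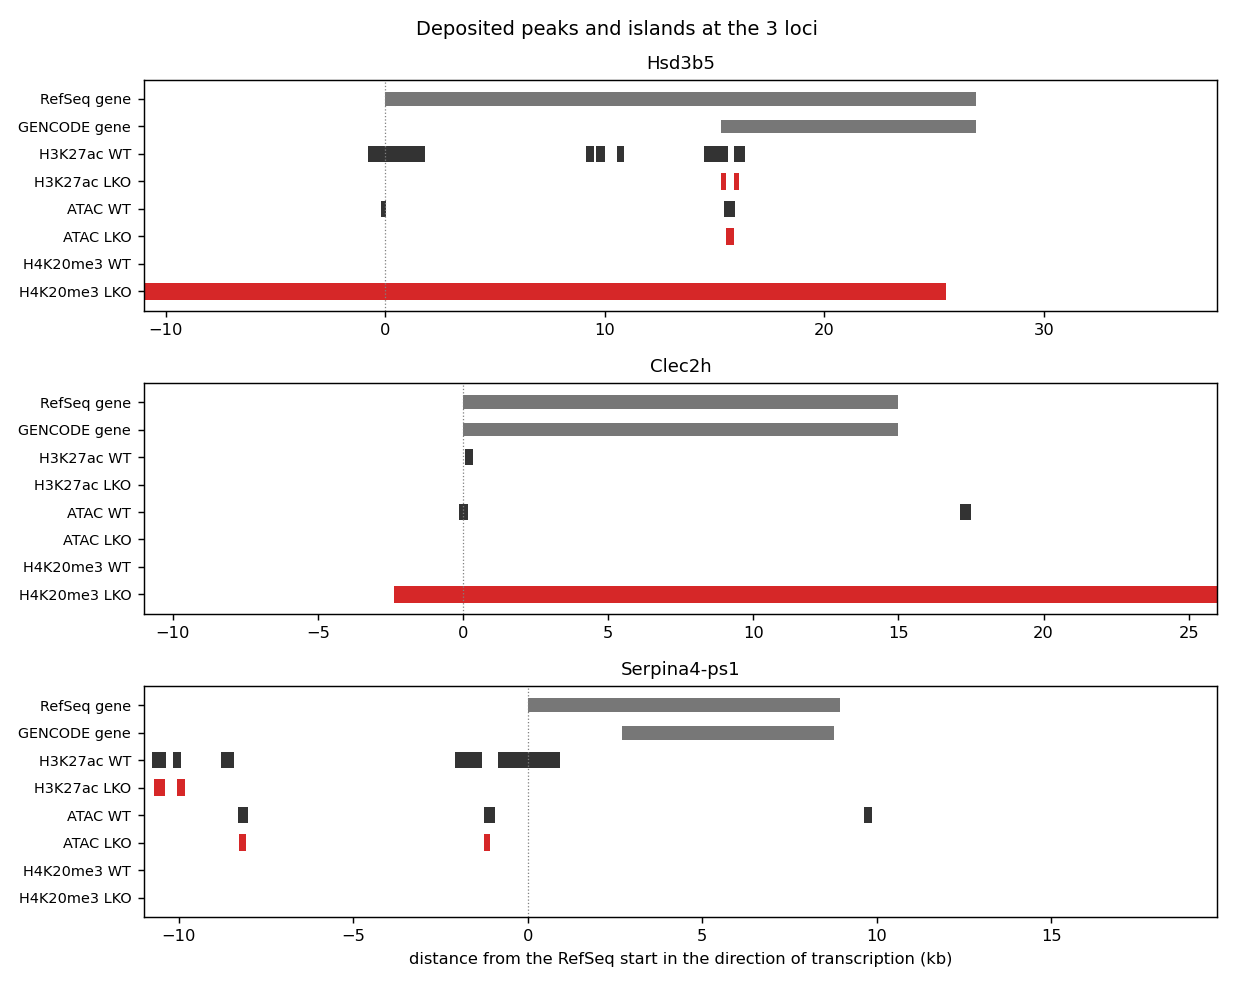
Peaks and islands of untreated WT (black) and Setd8-LKO + TCPOBOP (red) by distance from the RefSeq start, with the gene models in grey; islands that reach a panel's edge continue beyond it. The WT H3K27ac peaks at 0 have no red H3K27ac counterpart at any of the 3 starts.

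Among all tested genes this was uncommon for H3K27ac and less so for accessibility. Of 815 called-lower genes with an untreated WT H3K27ac peak at the RefSeq start, 66 (8.10%, exact 95% interval 6.32 to 10.2) had none in the Setd8-LKO + TCPOBOP list, against 17 of 1011 called-higher genes (1.68%, 0.98 to 2.68). For accessibility the shares were 139 of 634 (21.9%, 18.8 to 25.4) and 135 of 669 (20.2%, 17.2 to 23.4). Genes not called had shares of 5 of 95 for H3K27ac (5.26%, 1.73 to 11.9) and 11 of 49 for accessibility (22.45%, 11.8 to 36.6). The H3K27ac interval of genes not called overlaps those of both called classes. The intervals treat genes as independent.

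**Figure D4:**
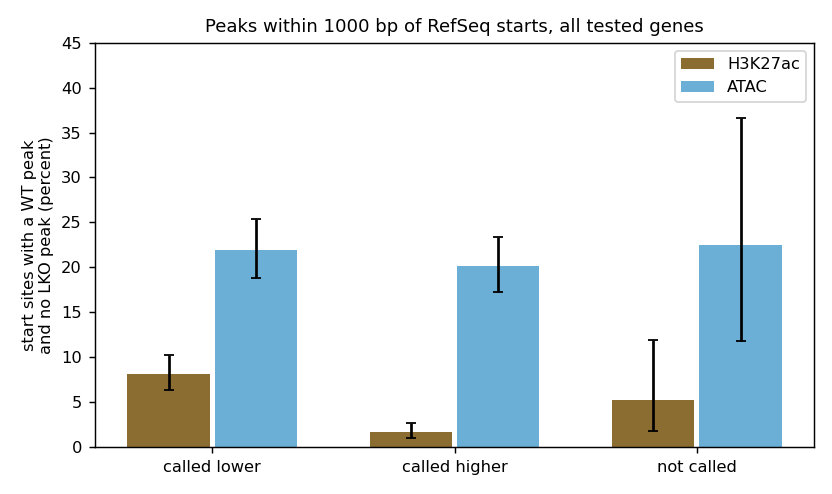
Percent of RefSeq starts with an untreated WT peak within 1000 bp and no Setd8-LKO + TCPOBOP peak there, by RNA class, with exact 95% intervals. The H3K27ac share is 8.10% for genes called lower, 1.68% for genes called higher and 5.26% for genes not called. The accessibility shares are 21.9%, 20.2% and 22.45% in the same order.

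An H4K20me3 island that was only in the Setd8-LKO + TCPOBOP list covered most of Hsd3b5 (chr3:98620001-98700000, island score 50.2) and all of Clec2h (chr6:128660001-128780000, score 107). Of 3726 tested genes 84 (2.25%) overlapped an H4K20me3 island of the Setd8-LKO + TCPOBOP list and none of the untreated WT list. So did 36 of 1399 called lower (2.57%, exact 95% interval 1.81 to 3.55). No H4K20me3 island of either list overlapped Serpina4-ps1, whose nearest one in the Setd8-LKO + TCPOBOP list was 138.0 kb away. No Lamin A/C island of either list lay within 794 kb of a member. No CTCF peak lay within 10 kb of a member, and the single Smc3 peak there, in untreated WT only, was 7.8 kb from Serpina4-ps1.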

How the data were processed

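RNA-seq reads were aligned to mm10 with HISAT2 and counted and normalized with metaseqR by the authors. The deposited tables give raw counts per gene and normalized counts rounded to whole numbers, treated as a score, for genes that passed the authors' own test; columns of fold changes, p-values and FDR hold their comparisons and were used only to derive that 18512 genes had been tested. A further 114 columns of per-sample values were not used. Raw counts of listed genes summed to 5734065 to 12780869 per library in the first table and 1389901 to 3706582 in the second; only an average depth, 40000000 reads, is stated, and the depth of each library is not given in the sources used here. Untreated WT values were identical in both tables.

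ChIP-seq, ATAC-seq and CUT&Tag reads were trimmed with Trimmomatic 0.39 per the labels. The deposited peak lists (MACS2 2.2.7.1, p cutoff 1e-13) give fold enrichment as a ratio and -log10 p, and the deposited islands (SICER, 20 kb windows) a score. ChIP-seq and CUT&Tag reads were reduced by the authors to the sample with the fewest reads before peaks were called, which is not stated for ATAC-seq. Whether replicates were pooled is not given. ATAC-seq had 3 untreated WT and 5 Setd8-LKO libraries and H3K27ac 3 and 3.

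Raw counts were tested with edgeR 4.0.16 (glmQLFit and glmQLFTest, filterByExpr with minimum count 10, the authors' factors), with Benjamini-Hochberg adjustment over 18512 genes; genes were called at adjusted p below 0.05 and at least 1 log2 unit. The fit was tested on simulated data. DESeq2 1.42.0 and limma 3.58.1 served as alternatives, with other scalings, filters, blocks and single libraries left out. Named genes were the members, the 5 nearest genes to each, and at most 6 genes per list with the largest called change plus fixed pathway genes. Intervals on reads are exact and cover counting error only. Peaks were shared at 1 bp of overlap; the gene body was the union of GENCODE and RefSeq spans. The members and lists were chosen with earlier results of these data known. Nothing in the labels ties equal replicate numbers to one animal, and p-values measure the spread between these libraries. The untreated controls' vehicle is described differently in different sources of the study. A listed regulator is not reported here.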

Additional observations from a re-analysis of the deposited data

Results flagged for a closer look

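Of 9 groups of libraries examined (3 genes in 3 groups), 1 held a library far from the others. For Clec2h in Setd8-LKO + TCPOBOP, the gap between the highest library (normalized count 2) and the next (0) was the whole range, a ratio of 1.0. It rests on 2 reads. For continuous values chance alone marks about 1 group in 20; with the other 3 libraries at 0 the ratio is 1.0 for any count above 0.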

How the results depend on the processing

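With single libraries left out, counts of called genes ranged from 3114 to 3464 for Setd8-LKO + TCPOBOP and from 470 to 539 for WT + TCPOBOP, male-biased genes called lower from 26 to 31 and female-biased genes called from 12 to 17. Log2 fold changes in WT + TCPOBOP then ranged from -4.19 to -3.28 for Hsd3b5, from -3.17 to -2.52 for Clec2h and from -2.41 to -1.31 for Serpina4-ps1. Hsd3b5 was called under all 21 alternatives run. Clec2h, not called in the reported fit, was called with TMM (-4.08), DESeq2 size factors (-4.02), the DESeq2 test (-2.81), adjustment over the table alone (-2.81), run as a term (-2.85), within run B (-2.71) and without untreated WT replicate 4; its edgeR adjusted p ranged up to 0.634 within run A. Serpina4-ps1 was called only within run A (-3.47).

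Counts fell to 1257 (Setd8-LKO + TCPOBOP) and 275 (WT + TCPOBOP) within run A, and to 278 and 282 for WT + TCPOBOP with TMM and DESeq2 size factors over the listed genes, where 207 genes were lower in both and 71 and 75 higher, in place of 140 and 395; the cause was not tested. Male-biased genes called lower fell to 19 within run B. No member changed sign under the alternatives run. With the replicate block the counts were 2937 and 364, and the edgeR adjusted p of Hsd3b5 was 0.0487. Same-numbered libraries shared only a number, with correlations of deviations from -0.406 to 0.222. With a pseudocount of 5, 3 of 5 nearest genes were shared for Hsd3b5 and Serpina4-ps1 and 1 of 5 for Clec2h. Within 2500 bp, Serpina4-ps1 had an accessibility peak in both lists, and the share of WT peaks without a counterpart stayed between 61.7% and 83.3% (66.7% as reported). Read depth of each peak list is not given in the sources used here.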
